A study of Mus musculus with 9 samples.

Results

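The tissue inhibitors of metalloproteinases (TIMPs) and the matrix metalloproteinases (MMPs) were followed through hearts of mice from a doxorubicin cardiomyopathy study. The 8 genes were taken by symbol from a table of 29237 genes: the inhibitor genes Timp1, Timp2, Timp3 and Timp4, and the protease genes Mmp2, Mmp14, Mmp15 and Mmp9. All 8 were found, with 1 row each. Messenger RNA had been sequenced from 9 heart samples, with 3 libraries each in the groups that the labels call TPTN, DOX and control. In every group the strain was C57BL/6, the genotype wild type and the age 8 to 12 weeks. DOX stands for the doxorubicin model, in which an anthracycline cancer drug damages heart muscle. The design text calls TPTN a treated group. Whether its mice were also given doxorubicin is not in the labels, and neither are doses or days. The labels do not state that replicates came from separate animals, and the p-values therefore reflect the spread among these 9 samples, which may be technical.

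MMPs are zinc enzymes that cut collagens, laminins and other proteins outside the cell. They are made as inactive precursors, and TIMPs bind the active site of the mature enzyme. In the heart the balance of the inhibitors and the proteases is studied as a control on matrix turnover during injury and remodelling. MMP14 and MMP15 are anchored in the cell membrane, and MMP2 and MMP9 are secreted gelatinases. TIMP2 has a second role, since together with MMP14 it takes part in the activation of the MMP2 precursor. TIMP3 stays bound to the matrix and also inhibits ADAM17, a sheddase of cell surface proteins. TIMP4 is known for its strong expression in heart.

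Timp4 and Mmp15 were the members past the threshold in any comparison, and the sequence just before their first annotated base is shown because these are the promoters next to the differing transcripts. Both come from RefSeq (GRCm38.p6) and are written 5′ to 3′ on the gene's own strand. The Timp4 stretch is chr6:115252206-115252455 on the minus strand, and the Mmp15 stretch is chr8:95352046-95352267 on the plus strand. Capitals mark matches to 6 motifs searched on both strands.
Timp4: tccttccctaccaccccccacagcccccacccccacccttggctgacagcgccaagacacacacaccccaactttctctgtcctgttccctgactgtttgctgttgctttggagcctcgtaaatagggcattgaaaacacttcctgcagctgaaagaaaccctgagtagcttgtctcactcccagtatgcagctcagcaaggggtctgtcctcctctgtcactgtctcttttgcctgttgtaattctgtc
Mmp15: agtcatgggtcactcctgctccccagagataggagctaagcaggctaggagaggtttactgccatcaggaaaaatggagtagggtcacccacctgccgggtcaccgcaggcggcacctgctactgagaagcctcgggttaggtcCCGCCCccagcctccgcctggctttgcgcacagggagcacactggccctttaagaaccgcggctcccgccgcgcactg
The motifs were the TATA box (TATAAA), the CCAAT box (CCAAT), the GC box (GGGCGG), the AP-1 site (TGANTCA), a 6-base part of the glucocorticoid receptor's site (AGAACA) and the E-box of clock factors (CACGTG). The Mmp15 stretch held 1 match, a GC box 78 bases before its end, and the Timp4 stretch held 0 matches. A GC box occurs in 28.8% of 32851 RefSeq promoter windows of the Mmp15 length and in 32.7% of windows of the Timp4 length. The GC content was 63.1% for the Mmp15 stretch and 53.6% for the Timp4 stretch. A match describes these letters only, and a missing match says nothing of a factor.

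Values are FPKM, the read pairs of a gene divided by its transcript length and by the size of the library, as the authors deposited them. Because the unit is per length, levels of different genes can be set side by side. Counts were not used here. The smallest steps of the low values gave a rough depth of 19.2 to 25.6 M read pairs per library, a weak estimate, since 14.7 to 18.1% of these values fell on whole steps within a tolerance of 0.05 steps. Cardiomyocyte markers summed to 11880 to 14990 FPKM per library, so all 9 had the profile of heart muscle. Mitochondrial transcripts took 48.1 to 48.7% of the FPKM sum in TPTN, 44.7 to 46.2% in DOX and 49.8 to 50.9% in control, and these groups did not overlap. DOX replicate 1 stood apart, with atrial markers at a sum of 2588 FPKM against 56.9 to 297 FPKM in the other 8 libraries, and it also had the highest fibroblast marker sum, 159 FPKM against 107 to 129 FPKM. Changes that it moved by over 1.5 times, turned in sign or took across the threshold are given with and without it.

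Differences were tested with limma on log2(FPKM + 1) in the 12500 genes with a mean of at least 0.5 FPKM, with Benjamini-Hochberg adjusted p under 0.05 as the threshold. Mmp9 had a mean of 0.241 FPKM over the 9 libraries and was not tested, which left 7 members. The added 1 shrinks the log2 changes of weakly expressed genes.

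Among the inhibitors, Timp4 was low in the TPTN hearts. Timp4 (ENSMUSG00000030317, chromosome 6 from 115241892 to 115252205, minus strand) had 2.70, 2.596 and 2.84 FPKM in TPTN replicates 1, 2 and 3. It had 5.66, 10.1 and 7.09 FPKM in the DOX replicates and 8.09, 7.23 and 10.2 FPKM in the control replicates. All TPTN libraries lay below every DOX and control library, and they were close to each other, while DOX and control libraries overlapped. The mean was 2.71 ± 0.123 FPKM in TPTN, 7.62 ± 2.27 FPKM in DOX and 8.49 ± 1.4998 FPKM in control (SD, n = 3 each).

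In TPTN against DOX, Timp4 fell by 1.18 on the log2 scale (SE 0.174, 95% interval -1.58 to -0.79, limma adjusted p = 0.017), a ratio of means of 0.356. In TPTN against control it fell by 1.34 (SE 0.174, interval -1.73 to -0.95, limma adjusted p = 0.0161), a ratio of means of 0.319. Both comparisons use the same TPTN libraries. In DOX against control its log2 change was -0.16 (interval -0.55 to 0.23, limma adjusted p = 0.696), and without DOX replicate 1 it was 0.01. The call against DOX was lost without TPTN replicate 1, 2 or 3 (limma adjusted p = 0.066, 0.0538 and 0.0601), in the fit lacking DOX replicate 3 (0.057) and when all genes were kept (0.115). The call against control was lost without TPTN replicate 1, 2 or 3 (limma adjusted p = 0.0551, 0.0683 and 0.0623) and when all genes were kept (0.11). Without DOX replicate 1 the fall against DOX was 1.35 with an adjusted p of 0.0167 in limma.

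The Timp4 gene lies inside Syn2, which codes for a synapsin of nerve terminals and runs on the opposite strand, and the annotation gives them 90 shared exon bases. The libraries were made to keep strand, per the labels, but whether the counting used it is not stated in the sources used here. Syn2 had 0.208, 0.179 and 0.226 FPKM in TPTN, 0.286, 0.291 and 0.243 FPKM in DOX and 0.461, 0.385 and 0.379 FPKM in control, below the minimum for a test. The 3 groups did not overlap for Syn2, with TPTN lowest and control highest, and its part in the Timp4 difference was not tested. TIMP4 is also made by fat cells. The 8 adipocyte markers summed to 0.153 to 0.718 FPKM in TPTN, 0.0941 to 1.85 FPKM in DOX and 0.0328 to 0.121 FPKM in control, and their part in the Timp4 difference was not tested. Of these markers, the fat cell hormone genes Lep and Retn were above 0 in DOX replicate 1 only, at 0.0241 and 0.0276 FPKM. Other markers of the list were not confined to that library. Adipoq had 0.170 FPKM in DOX replicate 1, 0.103 FPKM in DOX replicate 2 and 0.0319 FPKM in TPTN replicate 1. Cfd was above 0 in every library except control replicate 1. Cardiomyocyte markers summed to 13320 to 13852 FPKM in TPTN, 13213 to 14990 FPKM in DOX and 11880 to 13180 FPKM in control. In bulk samples, fewer cells of a type and less RNA per cell cannot be told apart.

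**Figure D1:**
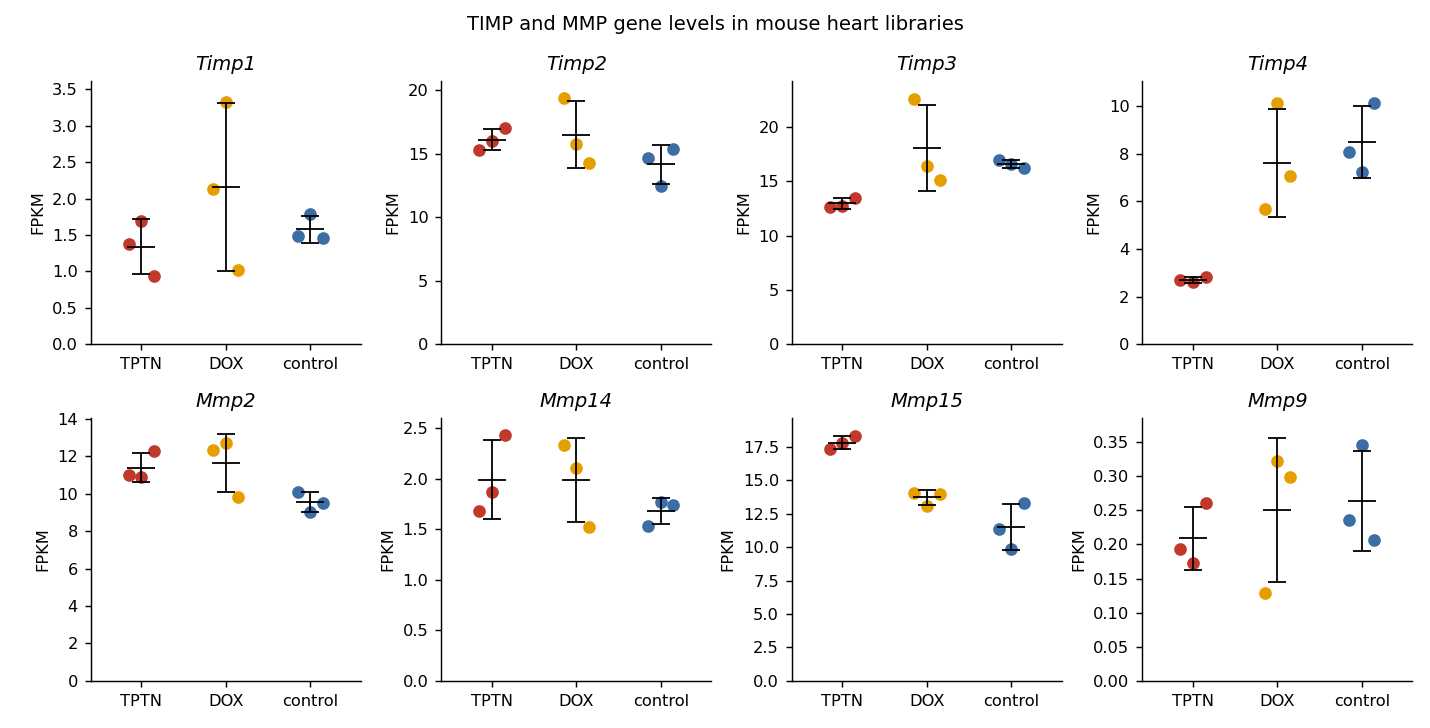
FPKM of the 8 genes in each library (points), with the mean and SD of 3 libraries per group (bars), for TPTN, DOX and control from left to right; each panel starts at 0 and has its own scale. Timp4 lies at 2.596 to 2.84 FPKM in TPTN and at 5.66 FPKM or more in every other library, and Mmp15 lies at 17.3 FPKM or more in TPTN and at 14.1 FPKM or less elsewhere.

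Timp3 was also lower in every TPTN library, by a smaller amount that did not pass the threshold. Timp3 (ENSMUSG00000020044, chromosome 10 from 86300372 to 86349506, plus strand) had 12.7, 12.7 and 13.5 FPKM in TPTN, 22.6, 16.5 and 15.1 FPKM in DOX and 17.0, 16.6 and 16.2 FPKM in control. The highest value was that of DOX replicate 1. The log2 change was -0.43 in TPTN against DOX (interval -0.69 to -0.17, limma adjusted p = 0.0761) and -0.26 without DOX replicate 1 (limma adjusted p = 0.0578). It was -0.33 in TPTN against control (limma adjusted p = 0.253), and a fit without DOX replicate 1, which leaves this change as it is but enters the shared estimate of the spread, gave an adjusted p of 0.0401 in limma. In DOX against control it was 0.09 (limma adjusted p = 0.734), and -0.07 without DOX replicate 1. Timp3 lies inside Syn3 on the opposite strand with 1733 shared exon bases, and Syn3 had at most 0.0624 FPKM in any library.

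Timp2 overlapped between all groups. Timp2 (ENSMUSG00000017466, chromosome 11 from 118301069 to 118355740, minus strand) had 15.3, 15.999 and 17.0 FPKM in TPTN, 19.4, 15.8 and 14.3 FPKM in DOX and 14.7, 12.5 and 15.4 FPKM in control. TPTN and control met only at their edges, 15.3 FPKM in TPTN and 15.4 FPKM in control. Its log2 change in TPTN against DOX was -0.02 (interval -0.26 to 0.22, limma adjusted p = 0.929). It was 0.18 in TPTN against control (interval -0.06 to 0.42) and 0.20 in DOX against control (interval -0.04 to 0.44), with limma adjusted p of 0.541 and 0.377. Without DOX replicate 1 the change was 0.0927 in TPTN against DOX and 0.0851 in DOX against control (limma adjusted p = 0.583 and 0.671).

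Timp1, the inhibitor gene known to be induced by inflammation and fibrosis, was low in all groups. Timp1 (ENSMUSG00000001131, chromosome X from 20870166 to 20874735, plus strand) had 1.38, 1.698 and 0.939 FPKM in TPTN, 2.13, 3.32 and 1.02 FPKM in DOX and 1.49, 1.78 and 1.46 FPKM in control. The DOX libraries were widely spread and overlapped both other groups. Its log2 change was 0.23 in DOX against control (interval -0.35 to 0.81, limma adjusted p = 0.701) and -0.38 in TPTN against DOX (interval -0.95 to 0.20, limma adjusted p = 0.441). The change in DOX against control was -0.03 without DOX replicate 2 and 0.52 without DOX replicate 3 (limma adjusted p = 0.964 and 0.176). It was -0.15 in TPTN against control (interval -0.73 to 0.43, limma adjusted p = 0.862). Timp1 lies inside Syn1 on the opposite strand, shares 0 exon bases with it, and Syn1 had at most 0.124 FPKM in any library.

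Among the proteases, Mmp15 was high in the TPTN hearts. Mmp15 (ENSMUSG00000031790, chromosome 8 from 95352268 to 95375080, plus strand) had 17.3, 17.8 and 18.3 FPKM in TPTN, 14.1, 13.1 and 13.9 FPKM in DOX and 11.4, 9.86 and 13.3 FPKM in control. Every TPTN library lay above every other library, and the DOX and control libraries overlapped through DOX replicate 2 and control replicate 3. The mean was 17.8 ± 0.504 FPKM in TPTN, 13.7 ± 0.526 FPKM in DOX and 11.5 ± 1.72 FPKM in control (SD, n = 3 each).

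In TPTN against control, Mmp15 rose by 0.60 on the log2 scale (SE 0.0913, interval 0.40 to 0.80, limma adjusted p = 0.0177), a ratio of means of 1.55. In TPTN against DOX its log2 change was 0.35 (interval 0.15 to 0.56, limma adjusted p = 0.0647), a ratio of means of 1.299, and in DOX against control it was 0.24 (interval 0.04 to 0.44, limma adjusted p = 0.192). The call against control was lost without TPTN replicate 1, 2 or 3 (limma adjusted p = 0.0551, 0.0683 and 0.0702), with only these groups in the fit (0.0502) and when all genes were kept (0.164). The difference from DOX did pass with only these groups in the fit (limma adjusted p = 0.036), under quantile normalization (0.0353), under scaling without mitochondrial genes and their copies (0.0204), and without control replicate 2 (0.0338) or 3 (0.0469). Without DOX replicate 1 it was 0.37, with an adjusted p of 0.0764 in limma.

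Mmp2 was higher than control in TPTN by a small margin. Mmp2 (ENSMUSG00000031740, chromosome 8 from 92827291 to 92853420, plus strand) had 10.97, 10.9 and 12.3 FPKM in TPTN, 12.3, 12.7 and 9.84 FPKM in DOX and 10.1, 9.01 and 9.51 FPKM in control. All TPTN libraries lay above all control libraries, and DOX replicate 3 lay within the control range. The log2 change was 0.23 in TPTN against control (interval 0.02 to 0.44, limma adjusted p = 0.325) and 0.25 in DOX against control (interval 0.04 to 0.46, limma adjusted p = 0.187). In TPTN against DOX it was -0.02 (interval -0.23 to 0.19, limma adjusted p = 0.928), and 0.0225 without DOX replicate 1.

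Mmp14 showed no separation of the groups. Mmp14 (ENSMUSG00000000957, chromosome 14 from 54431612 to 54445364, plus strand) had 1.67, 1.86 and 2.43 FPKM in TPTN, 2.33, 2.10 and 1.52 FPKM in DOX and 1.53, 1.76 and 1.74 FPKM in control. Its log2 change was 0.01 in TPTN against DOX (interval -0.26 to 0.27), 0.15 in TPTN against control (interval -0.11 to 0.41) and 0.15 in DOX against control (interval -0.12 to 0.41). The limma adjusted p was 0.985, 0.65 and 0.577 in the same order. Without DOX replicate 1 the change was 0.0894 in TPTN against DOX and 0.0626 in DOX against control (limma adjusted p = 0.696 and 0.828).

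Mmp9, known as a product of neutrophils, was near the bottom of the measurable range. Mmp9 (ENSMUSG00000017737, chromosome 2 from 164940780 to 164955850, plus strand) had 0.193, 0.173 and 0.261 FPKM in TPTN, 0.129, 0.323 and 0.299 FPKM in DOX and 0.236, 0.346 and 0.207 FPKM in control, with overlap of all groups. Neutrophil markers, which were low in all libraries, summed to 0.494 to 0.541 FPKM in TPTN, 1.31 to 4.04 FPKM in DOX and 4.78 to 12.2 FPKM in control, from 6 of 8 listed genes. Only the calprotectin subunit genes S100a8 and S100a9 could be tested among them. S100a9 fell by 2.01 on the log2 scale in TPTN against control (limma adjusted p = 0.0264), and did not pass in TPTN against DOX (0.0783) or DOX against control (0.144). The limma adjusted p of S100a8 was 0.4 in TPTN against DOX, 0.108 in TPTN against control and 0.179 in DOX against control.

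Set together, 1 of 7 tested members, Timp4, was past the threshold in TPTN against DOX, where 3.26% of the 12500 tested genes were (0.792% higher and 2.46% lower). In TPTN against control it was 2 of 7, 1 higher and 1 lower, where 0.72% of genes were (0.336% higher and 0.384% lower). In DOX against control it was 0 of 7 in limma, where 2.63% were (2.23% higher and 0.4% lower). An unadjusted limma p under 0.05 was reached by 3 members in TPTN against DOX (20.6% of all genes), by 4 in TPTN against control (13.1%) and by 2, Mmp2 and Mmp15, in DOX against control (18%). Without DOX replicate 1 the members past the threshold numbered 1, 3 and 0 in the same order. The libraries did not overlap for 3 of 7 members in TPTN against DOX, 1 higher and 2 lower, and for 24.5% of all tested genes (10.4% higher and 14.1% lower). They did not overlap for 4 of 7 in TPTN against control, 2 higher and 2 lower, and for 21.3% of all genes (15.2% higher and 6.03% lower). In DOX against control it was 0 of 7, and 22.8% of all genes (17.7% higher and 5.1% lower). The median log2 change of the members was -0.02 in TPTN against DOX, 0.15 in TPTN against control and 0.20 in DOX against control. Over all tested genes it was -0.01, 0.04 and 0.04. In both comparisons with DOX the members' median was the value of Timp2. Without DOX replicate 1, Timp2 had 0.0927 in TPTN against DOX and 0.0851 in DOX against control. The members' medians without that library were not computed.

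**Figure D2:**
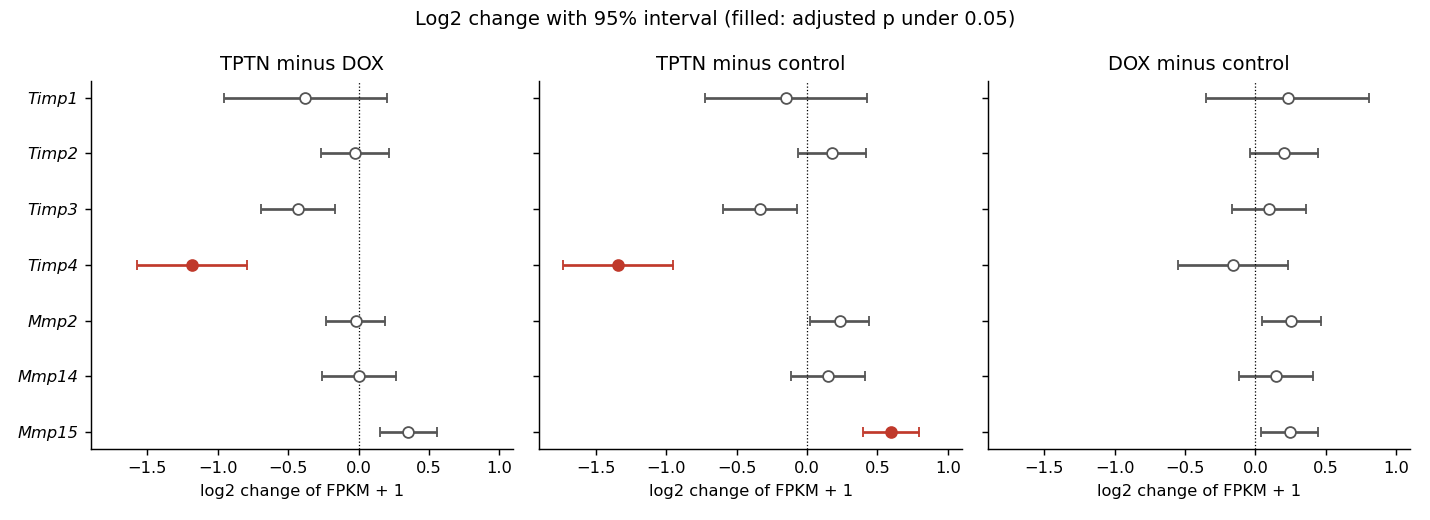
Log2 change of FPKM + 1 with its 95% interval from limma for the 7 tested genes (rows) in the 3 comparisons (panels); filled red points had an adjusted p under 0.05. Timp4 lies at -1.18 against DOX and -1.34 against control, Mmp15 at 0.60 against control, and the intervals for DOX against control lie between -0.55 and 0.81.

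The order of the 8 genes by mean level in TPTN differed from that in DOX and control. The orders of DOX and control differed only in Timp1 and Mmp14, whose ranges overlapped in both groups. In TPTN, Mmp15 had the highest level of the 8 (17.3 to 18.3 FPKM), followed by Timp2 (15.3 to 17.0 FPKM) and Timp3 (12.7 to 13.5 FPKM). Timp4 held rank 5 in all 3 groups. In TPTN only Mmp14 and Timp1 overlapped among neighbours. In DOX, Timp3 and Timp2 led with overlapping ranges, then came Mmp15, Mmp2 and Timp4, with Mmp2 and Timp4 overlapping, and Timp1 and Mmp14 overlapped further down. In control the order was Timp3, Timp2, Mmp15, Mmp2, Timp4, Mmp14, Timp1 and Mmp9, and neighbours in the stretch of Timp2 to Timp4 overlapped in their ranges, as did Mmp14 and Timp1.

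The make-up of the inhibitors differed in the same libraries. Timp4 supplied 8.41, 7.86 and 8.28% of the summed TIMP FPKM in TPTN, 11.4, 22.1 and 18.9% in DOX and 19.6, 19.0 and 23.5% in control. Timp2 supplied 47.8, 48.5 and 49.6% in TPTN, 39.0, 34.6 and 38.1% in DOX and 35.6, 32.7 and 35.5% in control. The TPTN libraries were thus lowest in the Timp4 share and highest in the Timp2 share, with no overlap with another group in either. The ratio of Timp4 to Timp3 was 0.204 to 0.213 in TPTN, 0.251 to 0.614 in DOX and 0.435 to 0.626 in control, and DOX replicate 1 gave the 0.251. Shares and ratios within a library do not depend on how libraries are scaled to each other.

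The summed TIMP level was 32.1, 33.0 and 34.3 FPKM in TPTN, 49.8, 45.7 and 37.5 FPKM in DOX and 41.2, 38.1 and 43.2 FPKM in control. The summed level of the 4 MMP members was 30.1, 30.7 and 33.3 FPKM in TPTN, 28.9, 28.2 and 25.6 FPKM in DOX and 23.2, 20.98 and 24.7 FPKM in control. Their quotient, TIMP over MMP, was 1.06, 1.07 and 1.03 in TPTN, 1.73, 1.62 and 1.47 in DOX and 1.78, 1.82 and 1.75 in control. The quotient of the 3 groups did not overlap, with TPTN lowest and control highest. DOX and control were apart by a narrow margin, 1.725 in DOX replicate 1 and 1.746 in control replicate 3. This holds for the 4 MMP members only, since other MMP genes are not in the sum. Among those left out, Mmp3 had 2.73 to 3.71 FPKM in DOX and 2.20 to 4.08 FPKM in control. It lay above Mmp14 in each of these libraries. Mmp11 and Mmp23 were left out too, with means over the 9 libraries of 1.68 and 1.69 FPKM, beside 1.88 FPKM for Mmp14. A quotient with these genes was not computed, so whether DOX and control would stay apart with them in the sum is not shown here. The genes were chosen with earlier results of these data known, so no p is given for the quotient. With mitochondrial genes and copies left out of the scaling, the TPTN and DOX ranges of summed TIMP overlapped (33.2 to 34.9 FPKM in TPTN and 34.4 to 47.7 FPKM in DOX), while Timp4 and Mmp15 in TPTN kept apart from both groups. The summed MMP ranges of DOX and control, apart as deposited, also overlapped then (23.4 to 27.7 FPKM in DOX and 22.5 to 25.9 FPKM in control).

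Ratios of Timp2 to its known partners did not separate the groups. Timp2 over Mmp2 was 1.40, 1.47 and 1.38 in TPTN, 1.57, 1.25 and 1.45 in DOX and 1.46, 1.38 and 1.61 in control. Timp2 over Mmp14 was 7.00 to 9.15 in TPTN, 7.53 to 9.40 in DOX and 7.06 to 9.57 in control. All groups overlapped in both ratios. Mmp15 over Mmp2, a quotient of proteases, was 1.49 to 1.63 in TPTN, 1.03 to 1.42 in DOX and 1.09 to 1.40 in control, with the TPTN libraries above all others.

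**Figure D3:**
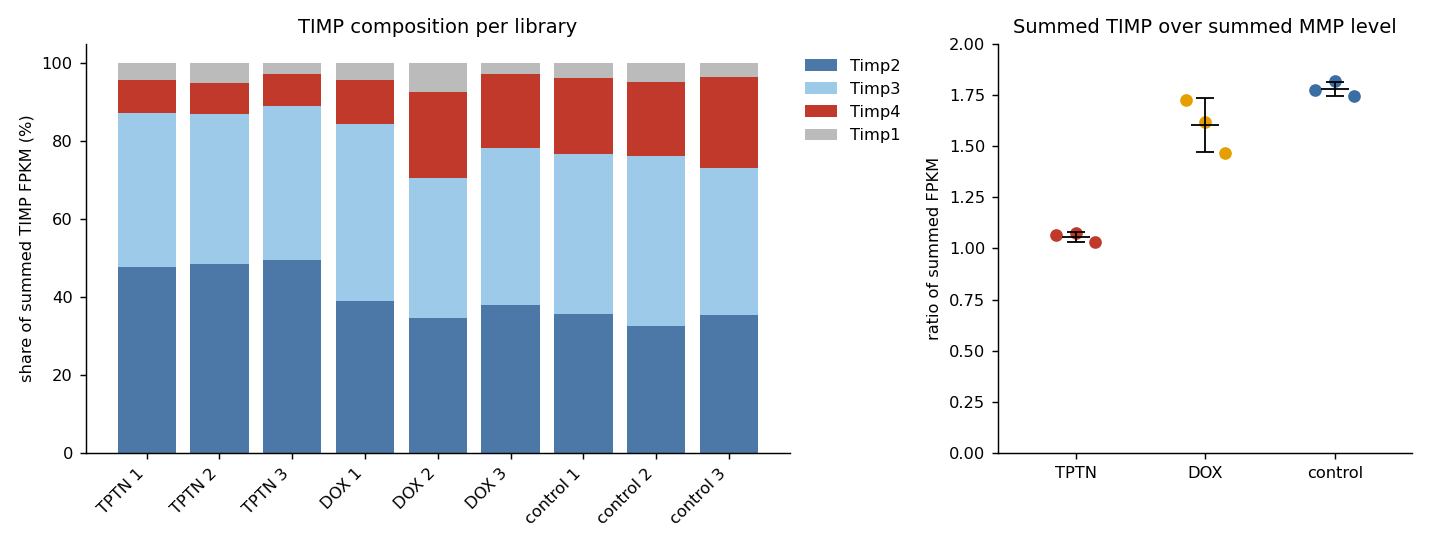
Left, the share of each TIMP gene in the summed TIMP FPKM of each library (stacked bars, percent); right, summed TIMP FPKM over the summed FPKM of the 4 MMP genes per library (points) with the mean and SD of 3 libraries per group. The Timp4 share is 7.86 to 8.41% in TPTN and 11.4 to 23.5% in the other libraries, and the quotient is 1.03 to 1.07 in TPTN and 1.47 to 1.82 elsewhere.

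The genes most like a member over the 9 libraries were found by the root mean square difference of log2(FPKM + 1), each gene centred on its own mean, among 11041 genes. For Timp4 they were Cdkn1a, the gene of the cell cycle inhibitor p21, at a difference of 0.288, Sult1a1, a sulfotransferase gene, at 0.297, and Slc10a6, a steroid sulfate transporter gene, at 0.302. The median gene stood at 0.655 from Timp4, whose own SD over the 9 libraries was 0.634 on this scale. The nearest genes of any member lie below its median gene because they were picked as the smallest differences. Slc10a6 had 0.350, 0.303 and 0.401 FPKM in TPTN, 1.28, 1.47 and 0.899 FPKM in DOX and 1.005, 1.27 and 1.78 FPKM in control.

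For Mmp15 they were Sox7, a transcription factor gene of endothelial cells, at a difference of 0.0541, Flna, the gene of the actin crosslinker filamin A, at 0.0895, and Dusp8, a phosphatase gene, at 0.0923. The median gene stood at 0.273. Sox7 had 5.503, 5.63 and 6.25 FPKM in TPTN, 4.28, 4.56 and 4.31 FPKM in DOX and 3.43, 2.99 and 3.98 FPKM in control, so its groups did not overlap. Of the 8 endothelial markers, 1 was past the threshold in both comparisons of TPTN, Kdr, the main receptor gene for VEGF. Its log2 change was 0.48 against DOX (limma adjusted p = 0.0303) and 0.66 against control (limma adjusted p = 0.0161). Past the threshold and higher were 0.792% of all tested genes against DOX and 0.336% against control. The median log2 change of the 8 was -0.04 against DOX, with 3 above 0, beside -0.01 over all tested genes. Against control it was 0.02, with 6 above 0, beside 0.04. Of all tested genes, 48.1% were above 0 against DOX and 62.4% against control. The endothelial markers summed to 181 to 216 FPKM in TPTN, 181 to 204 FPKM in DOX and 191 to 196 FPKM in control, and their part in the Mmp15 difference was not tested.

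For Timp3 the nearest genes were Corin, which codes for the protease that activates natriuretic peptides, at 0.0707, Cngb3 at 0.0707 and Ppip5k2 at 0.0802, against 0.250 for the median gene. Corin had 20.8, 20.5 and 21.1 FPKM in TPTN, 33.1, 26.2 and 26.1 FPKM in DOX and 24.9, 25.6 and 23.9 FPKM in control, with DOX replicate 1 again the highest. The nearest genes were Ube2w, Klhl30 and Dlc1 for Mmp2 and Ppp2r3a, Abca8a and Colec12 for Mmp14, at 0.0551 to 0.0591. For Timp1 they were Mir7091, Rps15a-ps7 and Rnaseh2c, at 0.159 to 0.192.

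**Figure D4:**
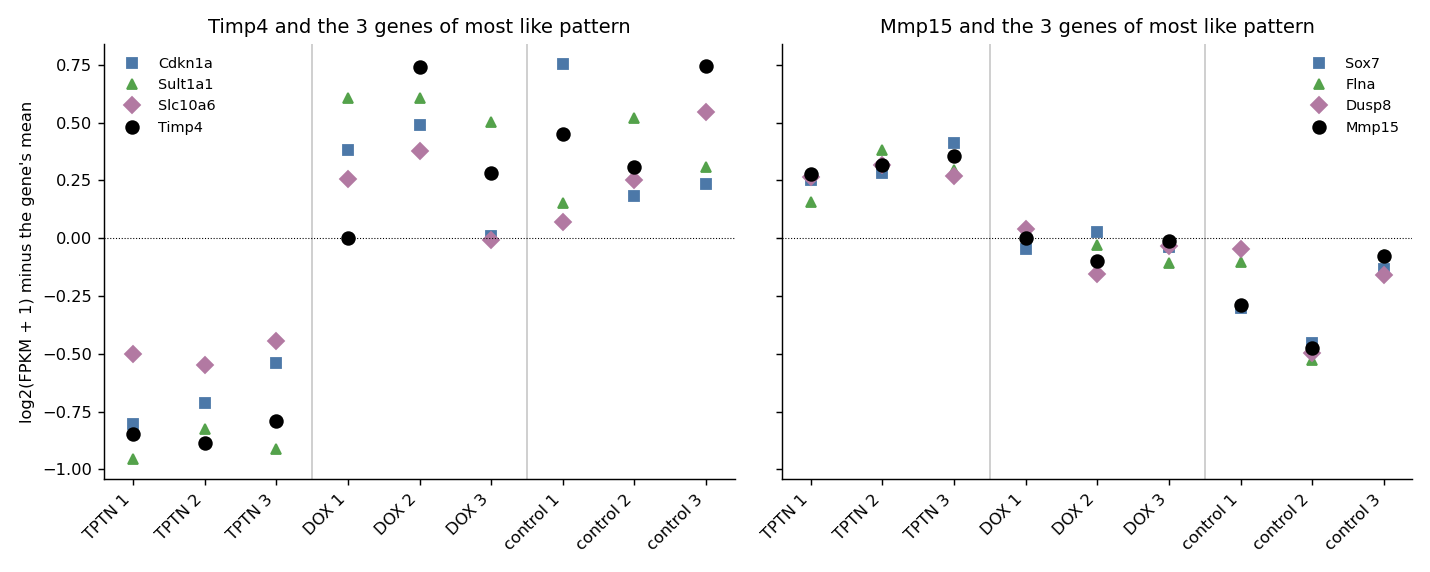
Log2(FPKM + 1) minus the gene's own mean over the 9 libraries (vertical) in each library (horizontal) for Timp4 and Mmp15 (black circles) and the 3 genes nearest to each (coloured marks). The nearest genes lie at root mean square differences of 0.288 to 0.302 from Timp4 and 0.0541 to 0.0923 from Mmp15.

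Other MMP genes did not pass the threshold. Of 19 other MMP genes, 14 were matched in the table and 5 were tested, and 0 passed in limma in any comparison. Past the threshold were 3.26% of all tested genes in TPTN against DOX, 0.72% in TPTN against control and 2.63% in DOX against control. Among all genes, 20.6% in TPTN against DOX, 13.1% in TPTN against control and 18% in DOX against control had an unadjusted p under 0.05. In each comparison 1 of the 5 did so in limma. In TPTN against DOX and TPTN against control this was Mmp3, stromelysin, with 2.11, 1.004 and 0.967 FPKM in TPTN, 3.71, 3.10 and 2.73 FPKM in DOX and 2.63, 4.08 and 2.20 FPKM in control. Its TPTN libraries lay below all others. Its log2 change was -0.85 in TPTN against DOX (limma adjusted p = 0.0725) and -0.76 in TPTN against control (limma adjusted p = 0.18). It is named after its values were seen.

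Of 24 ADAM and ADAMTS genes, relatives that shed surface proteins or cut proteoglycans, 12 were tested and 0 passed in limma in any comparison. Of all tested genes, 3.26, 0.72 and 2.63% passed in TPTN against DOX, TPTN against control and DOX against control. At an unadjusted p under 0.05 there were 3 higher in TPTN against DOX, 1 higher in TPTN against control and 2 lower in DOX against control. The share of all tested genes at that level, in either direction, was 20.6, 13.1 and 18% in the same order. The median log2 change of the 12 was 0.15, 0.01 and -0.08. Of 19 genes that regulate MMP activity, among them plasminogen activators and the membrane inhibitor gene Reck, 15 were tested. Lcn2 was the 1 gene past the threshold among them, lower in TPTN in both comparisons. Of all tested genes, 2.46% passed as lower against DOX and 0.384% against control. Lcn2 codes for neutrophil gelatinase-associated lipocalin, which binds MMP9, and it had 0.302, 0.583 and 0.317 FPKM in TPTN, 1.01, 1.26 and 0.911 FPKM in DOX and 1.51, 2.14 and 1.44 FPKM in control. It fell by 0.56 in TPTN against DOX (limma adjusted p = 0.0352) and by 0.94 in TPTN against control (limma adjusted p = 0.00819), and the part of the neutrophil markers in these differences was not tested. Its groups did not overlap. The call against DOX was lost without any 1 of the TPTN or DOX libraries, and that against control held without any 1 library. Both calls were lost when all genes were kept.

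Some collagen genes, whose products MMPs cut, were higher in TPTN. Of 18 genes of matrix proteins, 17 were tested. Of these, 16 had a log2 change above 0 in TPTN against DOX, where 48.1% of all tested genes did. Dcn went the other way at -0.40 (limma adjusted p = 0.0954), and its highest level was in DOX replicate 1, 71.6 FPKM. The median log2 change was 0.36 beside -0.01 over all tested genes. Past the threshold 5 rose and 0 fell, where 0.792% of all genes were higher and 2.46% lower. The 4 with the smallest p were Col6a3 (log2 change 0.52), Col3a1 (0.65), Col4a2 (0.62) and Col5a1 (0.48), with limma adjusted p of 0.0183 to 0.0352. The fifth was Col4a1 (0.66, limma adjusted p = 0.0392). The count was 3 without DOX replicate 1 or 2, 2 without control replicate 3, and 0 when all genes were kept or without DOX replicate 3 or any 1 TPTN replicate, and it was 9 with mitochondrial genes and copies left out of the scaling. The median stayed between 0.27 and 0.49 in these settings. Col3a1, a fibrillar collagen gene, had 17.1, 20.4 and 18.1 FPKM in TPTN, 10.9, 13.5 and 10.01 FPKM in DOX and 12.7, 9.44 and 10.2 FPKM in control. In TPTN against control the median of the 17 was 0.32, beside 0.04 over all tested genes. Above 0 were 16 of the 17, where 62.4% of all tested genes were. Col3a1 was the 1 gene that passed (log2 change 0.74, limma adjusted p = 0.0285), where 0.336% of all genes were higher and 0.384% lower. That count was 0 when all genes were kept and without control replicate 2 or 3 or any 1 TPTN replicate, and 2 or 3 without DOX replicate 1 or 3, without control replicate 1, with only these groups in the fit or at a minimum of 1 FPKM. In DOX against control 0 passed in limma, where 2.63% of all genes did, and 1 had an unadjusted p under 0.05 (18% of all genes). The list median was -0.03, beside 0.04 over all tested genes. Without DOX replicate 1 the list median was -0.08. Fibroblast markers, which share Col1a1, Col1a2 and Dcn with this list, had 0 of 8 past the threshold in every comparison. The share of all tested genes was 3.26% in TPTN against DOX, 0.72% in TPTN against control and 2.63% in DOX against control. The fibroblast markers summed to 109 to 124 FPKM in TPTN, 107 to 159 FPKM in DOX and 108 to 113 FPKM in control.

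**Figure D5:**
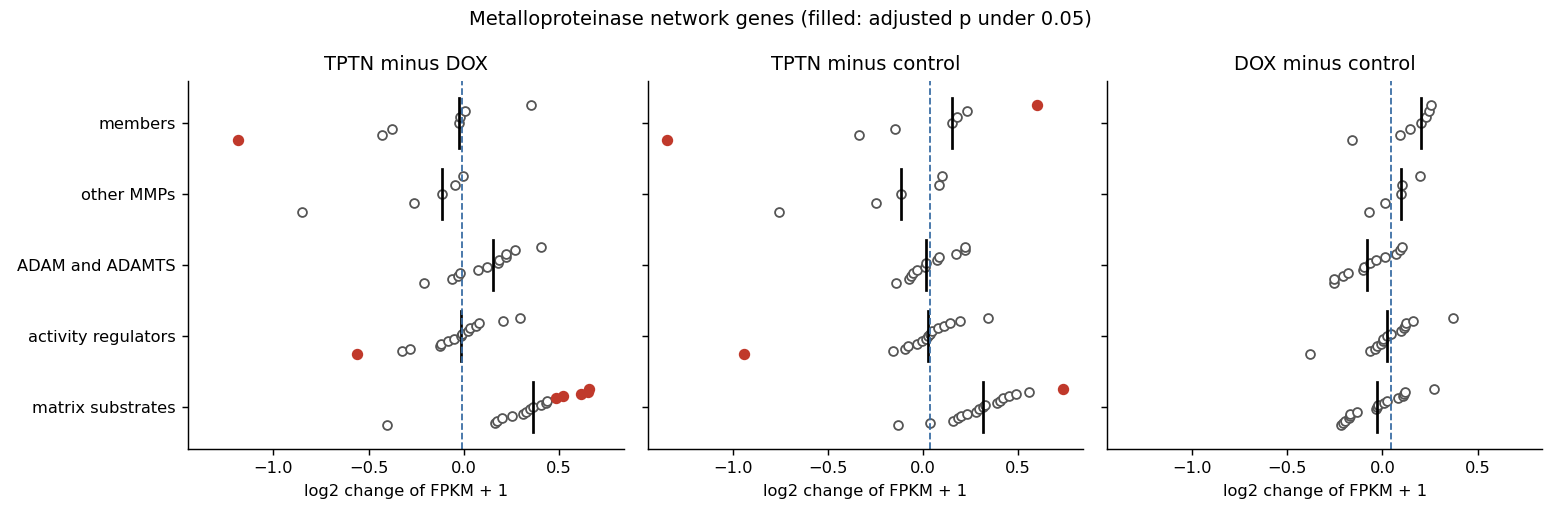
Log2 change of FPKM + 1 for each tested gene (points) of the members and of 4 related gene lists (rows) in the 3 comparisons (panels); filled red points had an adjusted p under 0.05, black bars are list medians and the dashed line is the median of all 12500 tested genes. Matrix substrate genes have a median of 0.36 against DOX and 0.32 against control, and the other lists lie between -0.12 and 0.20.

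The authors' deposited table also gives each gene a single p-value and q-value, and its header does not name the groups compared. In the authors' deposited table the q-value was 8.9e-18 for Timp4, 2.22e-05 for Mmp15, 0.0295 for Timp3 and 0.0867 for Mmp2. In the authors' deposited table it was 0.339 or more for Timp2, Timp1, Mmp14 and Mmp9, and 0.017 for Syn2.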

How the data were processed

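RNA from mouse hearts was sequenced in 9 libraries, 3 per group by the labels' titles. Per the submitters' processing notes, cutadapt 1.9, HISAT2 2.0.4, StringTie 1.3.4d, DESeq2 and edgeR were used with GRCm38, and the role of each is not given in the sources used here. The authors deposited FPKM per gene, and a p-value and q-value per gene. FPKM divides by transcript length and library total, so large shifts in abundant transcripts move all other values. After adding 1 FPKM and taking log2, genes averaging at least 0.5 FPKM were tested here with limma 3.58.1 (R 4.3.3; 1 mean per group, empirical Bayes with trend and robust estimation, 6 residual degrees of freedom) and Benjamini-Hochberg adjustment over 12500 genes. Before use, the fit was tested on simulated data with normal noise. These held no outlying library such as DOX replicate 1, so the simulation does not cover that case. The low FPKM values were whole multiples of a read pair too rarely for a test of counts.

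The members and gene lists were chosen with earlier results of these data known. Named were all 8 members, from each list up to 4 genes past the threshold by smallest p, and the 3 genes nearest to each tested member, of which those for Timp2 are not reported here. Genes with identifier-like symbols were left out of that search. Positions are those of GRCm38 in GENCODE M21, by gene identifier. Other settings were a pseudocount of 0.1, no filter, a minimum mean of 1 FPKM, only the compared groups, ordinary in place of robust estimation, replicate number as a block, 3 other scalings and leaving out each library. Counts of matrix substrate and regulator genes under these settings were added after seeing the data.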

Additional observations from a re-analysis of the deposited data

How the results depend on the processing

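The number of members past the threshold was 0 in all 18 other settings for DOX against control. For TPTN against DOX it was 1, with 0 when no filter was used, 2 with only the compared groups, under quantile normalization and under scaling without mitochondrial genes and copies, and 0 to 2 when 1 library was left out. For TPTN against control it was 2, with 0 when no filter was used, 1 with only the compared groups and 0 to 3 when 1 library was left out. In all 18 settings Timp4 stayed lower in TPTN (log2 change -1.42 to -0.98 against DOX, -1.60 to -1.22 against control) and Mmp15 higher (0.32 to 0.48 and 0.50 to 0.70). Of 378 member values under other settings, 342 kept direction and side of the threshold and 16 changed sign. Several settings leave a log2 change exactly as it was and can move only its adjusted p, so its sign was fixed there. These were no filter, a minimum of 1 FPKM, only the compared groups, ordinary estimation, the block, and leaving out a library of the group not compared. This holds for Timp4 and Mmp15 as well. Beside fits without 1 library, the sign changes were in Timp3 for DOX against control (-0.0619 when scaled without mitochondrial genes and copies), and for TPTN against DOX in Timp2 (0.0495 under quantile normalization and 0.10 in that scaling) and Mmp2 (0.0205 and 0.10). Without 1 library, they were in Timp1, Timp3 and Timp4 for DOX against control (lowest and highest -0.0326 to 0.52, -0.0693 to 0.21 and -0.36 to 0.00996) and in Timp2, Mmp2 and Mmp14 for TPTN against DOX (-0.12 to 0.0927, -0.13 to 0.0418 and -0.11 to 0.0894).

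All genes past the threshold for DOX against control numbered 329 (84.8% higher). They numbered 2 with no filter, 176 with only the compared groups, 170 with the replicate block, 155 under median ratios (61.3% higher), 145 under quantile normalization (53.1%), 270 without mitochondrial genes and copies (22.6%), and 2 to 314 without 1 library. For TPTN against DOX they numbered 407 (24.3% higher), 2 with no filter, 159 with the block, 401 under median ratios (35.7%), 333 under quantile normalization (51.4%), 671 without mitochondrial genes and copies (80.8%), and 45 to 468 without 1 library. For TPTN against control they numbered 90 (46.7% higher), 6 with no filter, 101 under median ratios (36.6%), and 21 to 148 without 1 library. Scaling without mitochondrial genes and copies gave an all-gene median of -0.07 for DOX against control, beside 0.04, and of 0.09 for TPTN against DOX, beside -0.01. Same-numbered libraries did not deviate together (correlations -0.261 to 0.0233, and 0 of 9 libraries correlated best with its own number). No pairing by number was seen, but with 3 libraries per group a weak one could go unseen. The block changed the call of no member, and left 1 matrix substrate gene past the threshold for TPTN against DOX and 0 for TPTN against control. Fits without a library also hold fewer samples, and the cause of the other changes was not tested. The summed MMP level of the 4 members in DOX was 25.8 FPKM when scaled without mitochondrial genes and copies.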
